A study of Mus musculus with 14 samples.

Results

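The genes described here are the ligands and receptors of the VEGF and angiopoietin families in mouse gonadal white adipose tissue (gWAT) and heart. They are 10 genes chosen by name. Their Ensembl gene IDs were looked up in the count table, where all 10 were found among 33459 gene IDs. Of these 10, 5 are ligands (Vegfa, Vegfb, Vegfc, Angpt1 and Angpt2), 4 are receptor tyrosine kinases (Flt1, Kdr, Flt4 and Tek) and 1 is a co-receptor (Nrp1). All 10 passed the filter on low counts in both tissues. The question put to them was how the loss of Fhl2, a cofactor of many transcription factors with LIM domains, goes with their transcript levels in each tissue.

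mRNA was sequenced from gWAT of 3 FHL2-/- (KO) and 3 wild-type (WT) samples, numbered 1, 3 and 4, and from hearts of 4 KO and 4 WT samples, numbered 1 to 4. All groups were of C57BL/6 background, 21 weeks old and on a high-fat diet for 8 weeks, so none of them was lean or on another diet. The labels do not say how the FHL2-/- allele was made or in which cells it is lost. They also do not say that the samples of a group came from separate animals. The p-values therefore measure the spread between these samples.

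VEGF ligands bind receptor tyrosine kinases on endothelial cells. VEGF-A acts mainly through Kdr (VEGFR2), while Flt1 (VEGFR1) binds VEGF-A and VEGF-B tightly and signals weakly, and VEGF-C acts through Flt4 (VEGFR3) in lymphatic growth. Angiopoietin-1 activates the receptor Tek (Tie2) and keeps vessels quiescent, and angiopoietin-2 blocks or activates Tek depending on the setting. In fat the adipocytes, and in heart the muscle cells, are known sources of VEGF-A, and the capillary endothelium of both tissues carries the receptors.

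Totals were 15105019 to 16040188 counts per gWAT library and 10835092 to 13272412 per heart library. Fhl2 had 0.208 to 0.376 CPM (read counts scaled to library size) in KO gWAT against 3.61 to 4.99 CPM in WT gWAT, and 33.5 to 44.3 CPM in KO hearts against 1205 to 1632 CPM in WT hearts. The 8 white adipocyte markers summed to 19496 to 30459 CPM in gWAT, and the 6 cardiomyocyte markers to 35758 to 42031 CPM in heart. CPM here are scaled with trimmed means of M-values (TMM) over all 14 libraries. Heart libraries 1 and 2 of both genotypes had 3685 to 5202 CPM of 5 atrial muscle markers summed, whereas heart libraries 3 and 4 had 105 to 1043 CPM. Between KO and WT gWAT edgeR's quasi-likelihood test, at an adjusted p under 0.05, called 3 of 6 macrophage markers, 5 of 7 markers of lipid-associated macrophages and 6 of 6 cell cycle genes lower, where 3.48% of all genes tested were called lower. It called 3 of 6 mesothelial markers higher, where 2.01% of all genes were. At an unadjusted p under 0.05, in either direction, there were 5 of 6 macrophage markers and 6 of 7 markers of lipid-associated macrophages. There were also 6 of 6 cell cycle genes and 6 of 6 mesothelial markers, beside 23.1% of all genes. Of the 6 macrophage markers, 1 had a positive log2 fold change, Cd163. It had 2629, 1977 and 2760 reads in KO gWAT libraries 1, 3 and 4, against 1700, 1050 and 1116 in WT gWAT libraries 1, 3 and 4. DESeq2 called 1 of the 6 higher, where it called 11.6% of all genes in both directions. Without WT library 4 or any 1 KO library no gene of the whole gWAT table was called, so these lists had 0 called genes there too. Without WT library 3, when 132 of 15434 genes (0.855%) were called, there were 1 macrophage marker, 3 markers of lipid-associated macrophages, 5 cell cycle genes and 0 mesothelial markers.

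In KO gWAT the transcript of Vegfa was higher than in WT gWAT, and the other 9 genes did not pass the test. Vegfa (ENSMUSG00000023951, chr17:46016993-46032369 on GRCm38), the ligand that makes new capillaries sprout, had 140, 164 and 215 CPM in KO gWAT libraries 1, 3 and 4, against 108, 84.5 and 82.0 CPM in WT gWAT libraries 1, 3 and 4. Every KO library was above every WT library, and the highest WT library was number 1. The fitted level was 1.90-fold higher in KO gWAT, with a log2 fold change of 0.92 ± 0.17 (SE, 95% interval 0.52 to 1.32) and an adjusted p of 0.0299 in edgeR's quasi-likelihood test with Benjamini-Hochberg adjustment over all genes tested. Vegfa was thus 1 of 10 genes called, where 834 of 15200 tested genes (5.49%) were called and 305 (2.01%) were called higher. At an unadjusted p under 0.05 there were 2 of the 10, Vegfa and Vegfb, beside 23.1% of all genes tested. In bulk tissue, more cells of a type and more transcript per cell cannot be told apart. The gene counts also do not separate the splice forms of Vegfa. The log2 fold change of Vegfa stayed between 0.74 and 1.06 when single libraries were left out. The edgeR adjusted p was 0.0714 without WT 3, 0.145 without WT 4, 0.0900 without KO 1, 0.0982 without KO 3 and 0.103 without KO 4, all above the threshold of 0.05, and 0.00434 without WT 1. The whole table moved in the same way. In the fits without WT 4, KO 1, KO 3 or KO 4 edgeR called 0 genes of 15501 to 15606 tested, not even Fhl2, although 15.3% to 20.6% of them had an unadjusted p under 0.05. It called 132 of 15434 genes (0.855%) without WT 3 and 2908 of 15578 (18.7%) without WT 1. The Vegfa call was thus lost in fits in which nearly all calls of the table were lost.

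Vegfb (ENSMUSG00000024962, chr19:6982473-6987651), a ligand of Flt1 known mainly from heart and fat, lay just outside the threshold. It had 99.3, 84.6 and 78.1 CPM in KO gWAT libraries 1, 3 and 4, against 70.1, 49.1 and 55.6 CPM in WT gWAT libraries 1, 3 and 4. Every KO library was again above every WT library, and number 1 was the highest in both genotypes. In the fit its log2 fold change was 0.59 ± 0.14 (SE, 95% interval 0.26 to 0.92), with an edgeR adjusted p of 0.0549 over all genes tested. The adjusted p was 0.00984 in DESeq2, 0.0207 when all 14 libraries shared 1 edgeR fit, 0.0187 in edgeR with no filter on low counts and 0.0485 with library totals in place of TMM. It was 0.0656 in limma-voom. Vegfa and Vegfb were the 2 of 10 genes whose KO and WT gWAT libraries did not overlap, which was so for 27.8% of all genes tested.

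The sequence just before the transcription start is shown for Vegfa and Vegfb because these were the genes whose gWAT groups stood apart. Each run holds the 250 bases before the RefSeq start nearest to the annotated gene start on GRCm38.p6, read 5′ to 3′ on the gene's strand, here the minus strand. Capitals mark GGGCGG or its reverse complement CCGCCC, the core bound by Sp1. The Vegfa window lies at chr17:46032378-46032627 and the Vegfb window at chr19:6987652-6987901.
Vegfa: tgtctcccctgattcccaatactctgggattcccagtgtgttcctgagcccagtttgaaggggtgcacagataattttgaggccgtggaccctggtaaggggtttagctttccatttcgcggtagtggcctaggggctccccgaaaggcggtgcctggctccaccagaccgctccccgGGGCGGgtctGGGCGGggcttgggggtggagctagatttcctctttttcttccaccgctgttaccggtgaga
Vegfb: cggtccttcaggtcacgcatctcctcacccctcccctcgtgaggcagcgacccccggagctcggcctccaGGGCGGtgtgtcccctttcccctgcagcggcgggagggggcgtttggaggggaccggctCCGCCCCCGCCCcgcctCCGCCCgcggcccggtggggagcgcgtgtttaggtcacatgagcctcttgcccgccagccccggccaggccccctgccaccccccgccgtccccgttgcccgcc
The Vegfa window holds 2 of these cores and the Vegfb window 4. Such a core stands in 32.7% of 32851 mouse windows of this length. The hypoxia response core ACGTG or CACGT, which 16.6% of the windows hold, is not in these letters of either gene. Bases outside these 250 were not searched, so the windows cannot show whether either gene has such a core farther away.

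**Figure D1:**
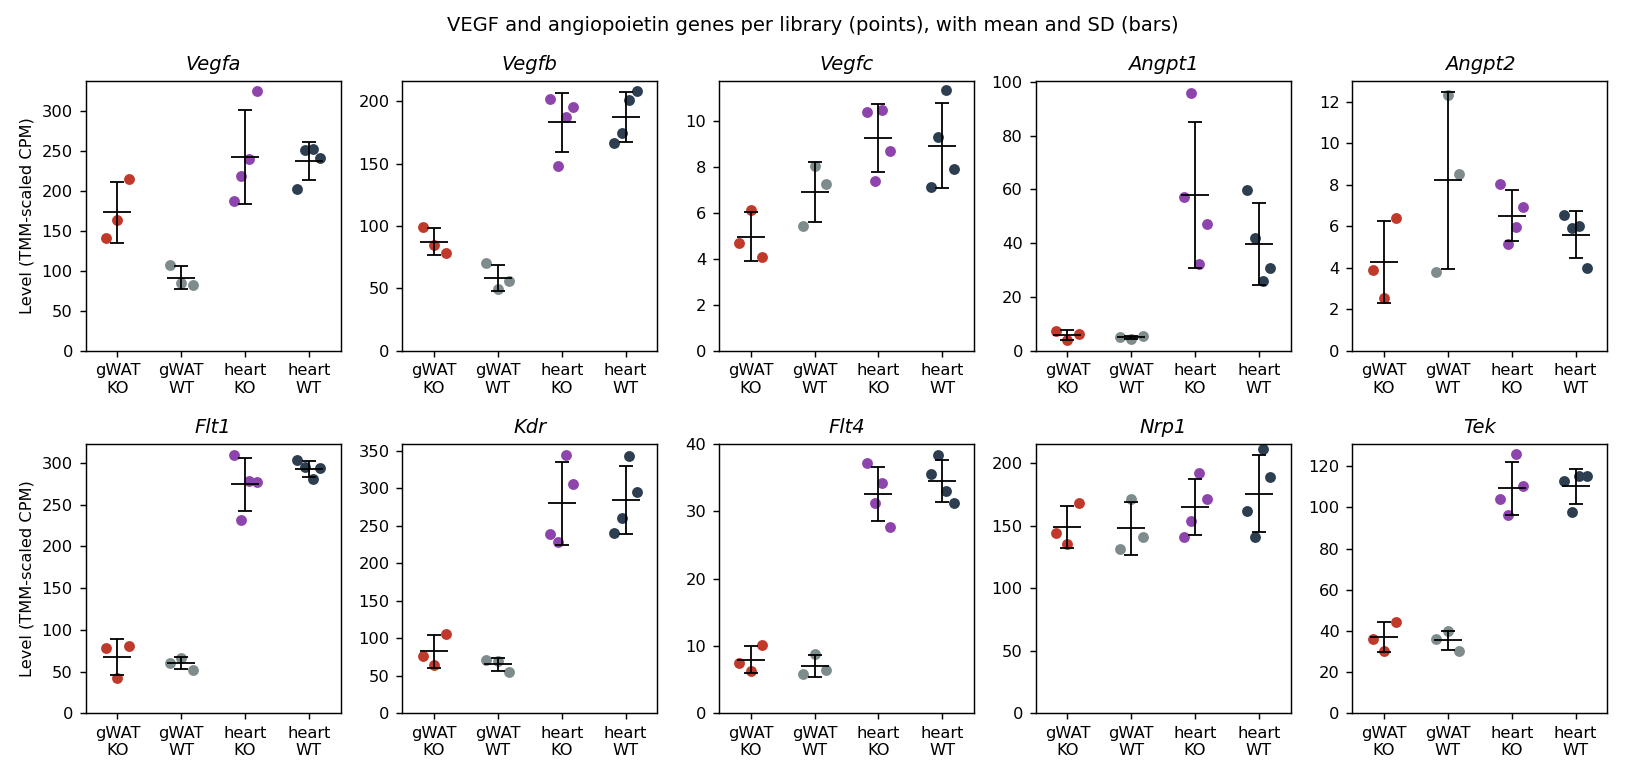
Level of each of the 10 genes in every library, in TMM-scaled CPM on the vertical axis, by tissue and genotype along the horizontal axis. Points are libraries and bars are the mean with the SD (n = 3 per gWAT group, n = 4 per heart group). In Vegfa and Vegfb the 3 KO gWAT points lie above the 3 WT gWAT points, and in heart the KO and WT points of every gene overlap.

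White adipocyte markers were set beside these ligands, since adipocytes are a known source of Vegfa. Of 8 such markers, 7 had a positive log2 fold change in KO gWAT, 0 were called in edgeR and the median was 0.43, against a median of 0.00 over all genes tested. At an unadjusted p under 0.05 there were 4, beside 23.1% of all genes. The marker with a negative log2 fold change was Lep, with 42821, 67809 and 63385 reads in KO gWAT libraries 1, 3 and 4. WT gWAT libraries 1, 3 and 4 had 93443, 57480 and 88635 reads of Lep. Their summed level was 27487 to 30459 CPM in KO gWAT and 19496 to 30040.5 CPM in WT gWAT. On the log2 scale and within the same library, Vegfa stood at -4.34 to -3.64 relative to the mean of these markers in KO gWAT and at -4.67 to -4.35 in WT gWAT. Vegfb stood at -5.10 to -4.84 in KO gWAT and at -5.29 to -5.13 in WT gWAT. With all 8 markers, Lep included, the KO libraries of both genes were nearer to the marker mean than every WT library, by a narrow margin. This order depends on which markers are averaged, since Lep went the other way. The share of all genes in such an order was not counted. The 6 macrophage markers, whose cells can also make Vegfa, summed to 627 to 744 CPM in KO gWAT and 748 to 1519 CPM in WT gWAT, and none of them was at 0. The part of adipocyte or macrophage content in the Vegfa and Vegfb differences was not tested.

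The lymphatic ligand and the angiopoietins were at low levels in gWAT, with 244 to 488 reads per gene and genotype. Vegfc, the ligand of Flt4, had 4.67, 6.14 and 4.06 CPM in KO gWAT libraries 1, 3 and 4, against 5.45, 8.03 and 7.26 CPM in WT gWAT libraries 1, 3 and 4. The 2 groups overlapped, since KO library 3 was above WT library 1. In the fit Vegfc had a log2 fold change of -0.49 ± 0.23 (SE, 95% interval -1.005 to 0.03, edgeR adjusted p = 0.246).

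Angpt2, the angiopoietin made by remodelling endothelium, had 3.87, 2.55 and 6.41 CPM in KO gWAT libraries 1, 3 and 4, against 3.78, 12.3 and 8.53 CPM in WT gWAT libraries 1, 3 and 4. The WT libraries spread most, with number 1 within the KO range and numbers 3 and 4 above it. Its log2 fold change was -0.95 ± 0.46 (SE, 95% interval -2.01 to 0.10, edgeR adjusted p = 0.258). Without WT library 1 it was -1.30, with an edgeR adjusted p of 0.0284, in the fit in which 18.7% of all genes were called. Angpt2 lies within the bounds of Mcph1, a protein-coding gene on the opposite strand with 2975 reads in all 14 libraries. They share 0 exon bases, and since the strand setting is not given, the part of Mcph1 reads in the Angpt2 values was not tested. Averaged on the log2 scale, the 7 markers of lipid-associated macrophages stood at 5.99, 6.13 and 6.21 in KO libraries 1, 3 and 4. In WT libraries 1, 3 and 4 they stood at 7.23, 8.87 and 8.58. The WT libraries stood in the same order for Angpt2 and for these markers. The KO libraries did not, with library 3 lowest in Angpt2 and library 1 lowest in the markers. The part of these markers in the Angpt2 values was not tested.

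Angpt1, the agonist of Tek, had 7.41, 3.95 and 6.25 CPM in KO gWAT libraries 1, 3 and 4, against 5.04, 4.44 and 5.51 CPM in WT gWAT libraries 1, 3 and 4. The KO libraries lay on both sides of the WT libraries. Its log2 fold change was 0.23 ± 0.24 (SE, edgeR adjusted p = 0.614). The ratio of Angpt2 to Angpt1 within a library, a measure of the balance at Tek, averaged -0.51 ± 0.50 in KO gWAT and 0.56 ± 0.94 in WT gWAT on the log2 scale (SD, n = 3 each). The difference of -1.07 had p = 0.2 in a two-sided exact permutation test and an adjusted p of 0.8 over 6 such ratio tests. With 3 samples per group the smallest possible p is 0.1.

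The receptors in gWAT differed by less than the spread between samples. Kdr, the main signalling receptor of VEGF-A, had 77.0, 64.6 and 106 CPM in KO gWAT libraries 1, 3 and 4, against 71.0, 69.8 and 55.6 CPM in WT gWAT libraries 1, 3 and 4. KO library 4 was the highest of the 6, and KO library 3 was below 2 of the WT libraries. For Kdr the log2 fold change was 0.34 ± 0.19 (SE, 95% interval -0.09 to 0.77, edgeR adjusted p = 0.326). Flt1 had 78.3, 42.6 and 81.0 CPM in KO gWAT libraries 1, 3 and 4, against 60.8, 66.7 and 52.4 CPM in WT gWAT libraries 1, 3 and 4, so that the KO libraries enclosed the WT libraries. Its log2 fold change was 0.17 ± 0.23 (SE, edgeR adjusted p = 0.710).

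Flt4, Tek and the co-receptor Nrp1 had log2 fold changes of 0.17, 0.06 and 0.01 in gWAT, with edgeR adjusted p-values of 0.701, 0.857 and 0.978. Their ranges were 6.29 to 10.2 CPM in KO gWAT and 5.90 to 8.87 CPM in WT gWAT for Flt4, and 30.2 to 44.6 CPM in KO gWAT and 30.4 to 39.9 CPM in WT gWAT for Tek. Nrp1 was at 135 to 168 CPM in KO gWAT and 131 to 172 CPM in WT gWAT. KO gWAT library 3 was the lowest KO library in Flt1, Kdr, Flt4, Tek, Nrp1, Angpt1 and Angpt2. The 13 endothelial markers summed to 353 CPM in that library, against 631 and 603 CPM in KO libraries 1 and 4 and 471 to 616 CPM in WT gWAT. Without KO library 3 the log2 fold changes were 0.41 for Flt1, 0.49 for Kdr, 0.32 for Flt4 and 0.19 for Tek, with edgeR adjusted p-values of 0.206 to 0.613. In that fit edgeR called 0 of 15559 genes, so it cannot show whether a receptor differs. At an unadjusted p under 0.05 it had 5 of the 10 genes, beside 17.6% of all genes. With all 6 gWAT libraries, 0 of the 13 endothelial markers were called in edgeR. Of them 0 had an unadjusted p under 0.05, beside 23.1% of all genes, and the median log2 fold change was 0.02.

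In heart, 0 of the 10 genes were called between KO and WT, where 1 of 14159 genes tested (0.00706%), Fhl2 itself, was called. In edgeR 0 of the 10 had an unadjusted p under 0.05, beside 3.20% of all genes tested, and DESeq2 and limma-voom called 0 as well. For all 10 the edgeR adjusted p was 0.9997. The KO and WT hearts overlapped in all 10, whereas 2.41% of the genes tested had groups that did not.

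Vegfa had 187, 219, 240 and 325 CPM in KO hearts 1 to 4, against 202, 251, 252 and 241 CPM in WT hearts 1 to 4. The lowest and the highest heart were both KO hearts, and the log2 fold change was 0.03 ± 0.15 (SE, 95% interval -0.30 to 0.36). Vegfb was at 148 to 201 CPM in KO hearts and 167 to 208 CPM in WT hearts (-0.04 ± 0.11 on the log2 scale). Vegfc was at 7.41 to 10.5 CPM in KO hearts and 7.15 to 11.4 CPM in WT hearts. For both of these ligands the 2 ranges covered nearly the same levels.

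The receptors of KO and WT hearts overlapped and did not pass. Flt1 averaged 274 ± 32.1 CPM in KO hearts and 293 ± 9.59 CPM in WT hearts (SD, n = 4 each), with a log2 fold change of -0.10 ± 0.09 (SE, 95% interval -0.30 to 0.10). KO hearts 2, 3 and 4, at 232, 279 and 277 CPM, were below every WT heart, and KO heart 1, at 310 CPM, was above them all. Tek averaged 109 ± 12.7 CPM in KO hearts and 110 ± 8.48 CPM in WT hearts (SD, n = 4 each), with a log2 fold change of -0.01 ± 0.09 (SE, 95% interval -0.22 to 0.19). Flt4, the receptor of VEGF-C, had a log2 fold change of -0.09 with a 95% interval of -0.32 to 0.14, and the co-receptor Nrp1 had -0.10 with a 95% interval of -0.39 to 0.20.

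Kdr differed between sample numbers in the same direction in both genotypes. It had 240, 229, 345 and 307 CPM in KO hearts 1 to 4, against 240, 261, 343 and 295 CPM in WT hearts 1 to 4. In both genotypes hearts 3 and 4 were above hearts 1 and 2. The same held for Nrp1, with 141, 154, 192 and 172 CPM in KO hearts 1 to 4 and 162, 141, 211 and 189 CPM in WT hearts 1 to 4. Hearts 3 and 4 are also the hearts with fewer atrial transcripts, and the split by number was noticed after the values were seen. It was not particular to these 2 genes. Over 12567 genes, deviations from the group means had r of -0.47 to -0.18 between KO and WT hearts of different sets. The share of all genes in the order of Kdr and Nrp1 was not counted. The labels do not say what the numbers mark, and the part of atrial tissue in Kdr and Nrp1 was not tested.

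Angpt1 was the most variable of the 10 genes in heart, with a coefficient of variation of 46.7% in KO hearts and 38.2% in WT hearts, and it had the largest fitted fold change there without passing. It had 57.1, 95.7, 32.3 and 47.0 CPM in KO hearts 1 to 4, against 59.9, 42.0, 25.8 and 30.8 CPM in WT hearts 1 to 4. KO heart 2 was far above the others, and the remaining KO hearts lay within the WT range. On the log2 scale the fold change was 0.54 ± 0.32 (SE, 95% interval -0.17 to 1.26), and 0.19 without KO heart 2. The 5 atrial markers averaged 9.26, 9.32, 6.21 and 6.97 in KO hearts 1 to 4, against 8.97, 7.75, 2.41 and 4.13 in WT hearts 1 to 4, as log2 CPM. The 3 hearts with the highest atrial level had the most Angpt1, the 2 with the lowest had the least. With that level as a covariate, the log2 fold change of Angpt1 was 0.10 ± 0.19 (SE, edgeR adjusted p = 0.948). The atrial level went partly with genotype, at 6.21 to 9.32 in KO hearts and 2.41 to 8.97 in WT hearts. A fit of these hearts therefore cannot fully tell genotype and atrial content apart for Angpt1. The covariate fit tested KO against WT, and the part of atrial tissue in the Angpt1 values was itself not tested. Angpt2, in contrast, was low and even, with 5.15 to 8.03 CPM in KO hearts and 3.97 to 6.54 CPM in WT hearts (log2 fold change 0.21 ± 0.19, SE).

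**Figure D2:**
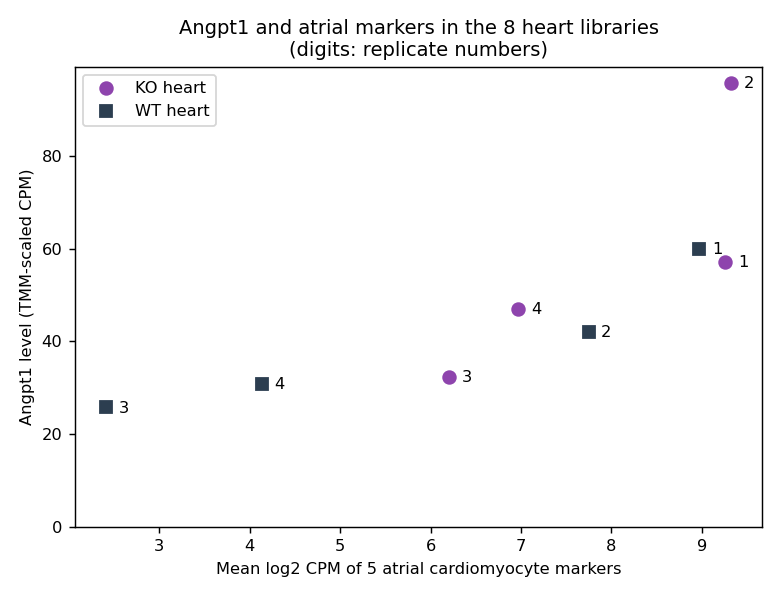
Angpt1 level in TMM-scaled CPM (vertical axis) against the mean log2 CPM of 5 atrial cardiomyocyte markers (horizontal axis) in 8 heart libraries, with circles for KO hearts, squares for WT hearts and digits for the sample number. KO heart 2 is at the upper right with 95.7 CPM of Angpt1 and an atrial level of 9.32, and WT heart 3 is at the lower left with 25.8 CPM and 2.41.

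The difference of the KO effect between gWAT and heart was tested in 1 fit of all 14 libraries, and 0 of the 10 genes passed in edgeR, where 184 of 16014 genes (1.15%) did. At an unadjusted p under 0.05 there were 3 (Vegfa, Vegfb and Angpt2), beside 15.2% of all genes, while DESeq2 called 1 (Vegfa), where it called 4.63% of all genes, and limma-voom called 0. Vegfa was higher by 0.92 in KO gWAT and by 0.03 in KO hearts on the log2 scale. The difference between tissues was 0.88 ± 0.25 (SE, 95% interval 0.34 to 1.42), with an edgeR adjusted p of 0.0970 and a DESeq2 adjusted p of 0.0309. Vegfb differed by 0.62 ± 0.20 (SE, edgeR adjusted p = 0.131) and Angpt2 by -1.16 ± 0.50 (SE, edgeR adjusted p = 0.278). For Vegfc the difference was -0.54 ± 0.28 (SE, edgeR adjusted p = 0.393).

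**Figure D3:**
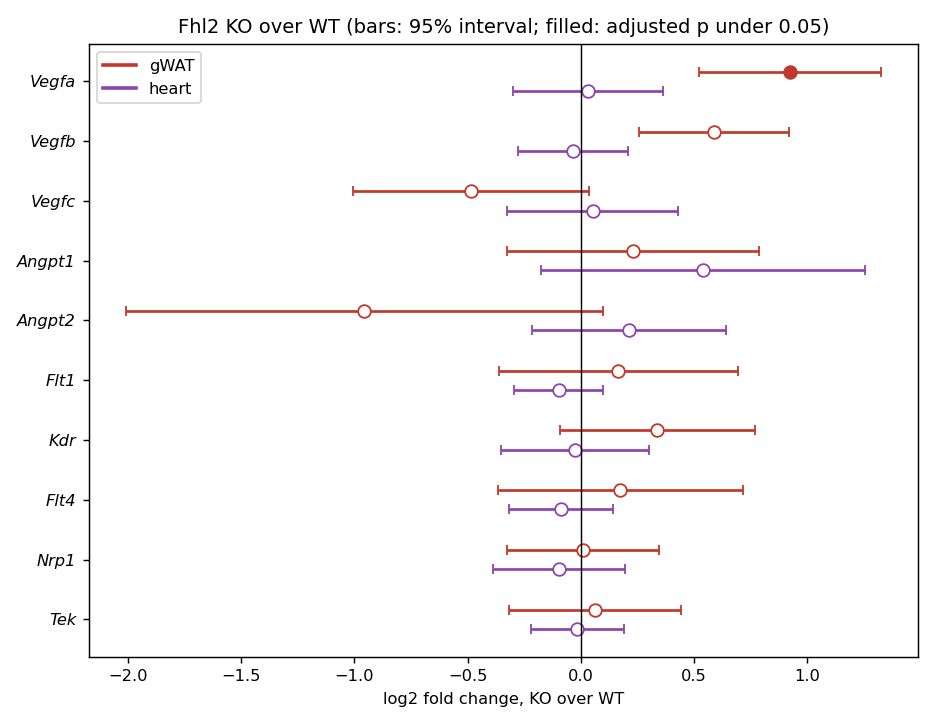
log2 fold change of KO over WT (horizontal axis) for each of the 10 genes (vertical axis) in gWAT and in heart, with 95% intervals as bars and filled points where the edgeR adjusted p was under 0.05. The point of Vegfa in gWAT at 0.92 is the filled one, the interval of Vegfb in gWAT also lies above 0, and all 10 heart intervals include 0.

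Other genes of the 2 families, and genes that act above or below the receptors, were looked at as lists. Of 5 further family genes tested in gWAT (Pgf, Vegfd, Nrp2, Tie1 and Ptprb), 0 were called in edgeR. At an unadjusted p under 0.05 there was 1 family gene, beside 23.1% of all genes. That gene was Nrp2, a co-receptor for VEGF-C, with 39.0, 40.0 and 52.4 CPM in KO gWAT libraries 1, 3 and 4, against 59.2, 112 and 81.1 CPM in WT gWAT libraries 1, 3 and 4 (log2 fold change -0.95 ± 0.24, SE, edgeR adjusted p = 0.058). DESeq2 called Nrp2. Angpt4 was too low to be tested.

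Of 18 genes of VEGF receptor signalling, 0 were called in gWAT by edgeR, 5 had an unadjusted p under 0.05, beside 23.1% of all genes, and the median log2 fold change was -0.02. DESeq2 called 2 of the 18 (Prkca and Grb2), where it called 1769 of 15196 genes (11.6%). Both counts are near the share over all genes. Of 14 genes known to follow VEGF or to mark sprouting tip cells, 0 were called in edgeR, 3 had an unadjusted p under 0.05, DESeq2 called 2, and the median was -0.10. Aplnr, the endothelial apelin receptor, was the nearest to the threshold, with 13.3, 13.9 and 13.5 CPM in KO gWAT libraries 1, 3 and 4, against 30.7, 21.4 and 17.4 CPM in WT gWAT libraries 1, 3 and 4 (edgeR adjusted p = 0.056). The tip cell gene Esm1 had a log2 fold change of 0.17 ± 0.47 (SE, edgeR adjusted p = 0.865).

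The hypoxia-inducible factors are the best known activators of Vegfa. Of 10 regulators of that response, 0 were called in gWAT by edgeR, beside 5.49% of all genes, with a median log2 fold change of 0.15. In edgeR 3 had an unadjusted p under 0.05, beside 23.1% of all genes. DESeq2 called 2 as higher, where it called 11.6% of all genes in both directions. Hif1a itself had -0.25 ± 0.15 and Epas1 0.09 ± 0.12 on the log2 scale (SE). Of 9 target genes tested, edgeR called 1, beside 5.49% of all genes. It was Ndrg1, a stress-induced gene, with 98.0, 99.2 and 84.9 CPM in KO gWAT libraries 1, 3 and 4, against 56.3, 64.6 and 59.2 CPM in WT gWAT libraries 1, 3 and 4. Its groups did not overlap, which was so for 27.8% of all genes tested. The log2 fold change of Ndrg1 was 0.65 ± 0.11 (SE, edgeR adjusted p = 0.027). Without WT 4, KO 1, KO 3 or KO 4, when no gene was called, its edgeR adjusted p was 0.0951 to 0.133. The median of these 9 target genes was -0.24, with 3 of the 9 above 0. In edgeR 2 of the 9 had an unadjusted p under 0.05, beside 23.1% of all genes.

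Among 4 lymphatic endothelial markers, 2 were called higher in KO gWAT by edgeR, where 2.01% of all genes were called higher. Lyve1, a hyaluronan receptor of lymphatic endothelium and of resident macrophages, had 54.2, 68.1 and 65.7 CPM in KO gWAT libraries 1, 3 and 4, against 47.9, 29.9 and 33.2 CPM in WT gWAT libraries 1, 3 and 4 (edgeR adjusted p = 0.045). Reln, a secreted protein of lymphatic endothelium, had 2.08 to 3.38 CPM in KO gWAT and 0.86 to 1.40 CPM in WT gWAT (edgeR adjusted p = 0.041). Prox1, the factor that defines lymphatic identity, was at 0.59 to 0.89 CPM in KO gWAT and 0.34 to 0.75 CPM in WT gWAT and did not pass, and neither did Flt4. Without WT 3, WT 4, KO 1, KO 3 or KO 4 both Lyve1 and Reln missed the threshold, with edgeR adjusted p-values of 0.0573 to 0.190, in the same fits in which few or no genes of the whole table were called. In heart, 0 genes of the family, signalling, VEGF-responsive and hypoxia lists were called by edgeR, DESeq2 or limma-voom. At an unadjusted p under 0.05 in edgeR there were 1 hypoxia regulator and 1 hypoxia target, beside 3.20% of all genes.

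The second axis of the design is the tissue, and 7 of the 10 genes were lower in gWAT than in heart in both genotypes. In KO mice 8 of 10 passed, all lower in gWAT, where 10941 of 16014 genes (68.3%) passed and 33.6% passed as lower. In WT mice 7 of 10 passed, all lower in gWAT, where 70.5% of the genes passed and 33.9% passed as lower. Angpt1 had the largest tissue fold of the 10, at 3.95 to 7.41 CPM in KO gWAT against 32.3 to 95.7 CPM in KO hearts and 4.44 to 5.51 CPM in WT gWAT against 25.8 to 59.9 CPM in WT hearts. Its log2 fold change of gWAT over heart was -3.30 ± 0.37 in KO mice and -2.99 ± 0.38 in WT mice (SE).

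The receptor kinases came next. Flt1 was at 42.6 to 81.0 CPM in KO gWAT against 232 to 310 CPM in KO hearts, with a log2 fold change of -2.03 ± 0.18 (SE, edgeR adjusted p = 9.87e-08), and at 52.4 to 66.7 CPM in WT gWAT against 280 to 303 CPM in WT hearts, with -2.29 ± 0.19 (SE). Flt4 had -2.03 ± 0.17 in KO mice and -2.29 ± 0.18 in WT mice (SE), and Kdr -1.76 ± 0.19 in KO mice and -2.12 ± 0.19 in WT mice (SE). Tek had -1.56 ± 0.14 in KO mice and -1.64 ± 0.14 in WT mice (SE). The 13 endothelial markers summed to 353 to 631 CPM in KO gWAT against 1186 to 1513 CPM in KO hearts and to 471 to 616 CPM in WT gWAT against 1267 to 1415 CPM in WT hearts, so the receptors and the endothelial markers were both lower in gWAT. The part of endothelial content in the receptor differences was not tested.

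The windows before the start of Flt1 and Kdr, the receptors of VEGF-A, are shown as examples of endothelial promoters. They lie on the minus strand of GRCm38.p6, at chr5:147726012-147726261 for Flt1 and chr5:75978456-75978705 for Kdr, and were taken from RefSeq in the same way as those of the ligands. Capitals mark GGGCGG or CCGCCC, and GGAAGT or ACTTCC, a core bound by ETS factors that 19.7% of the windows hold.
Flt1: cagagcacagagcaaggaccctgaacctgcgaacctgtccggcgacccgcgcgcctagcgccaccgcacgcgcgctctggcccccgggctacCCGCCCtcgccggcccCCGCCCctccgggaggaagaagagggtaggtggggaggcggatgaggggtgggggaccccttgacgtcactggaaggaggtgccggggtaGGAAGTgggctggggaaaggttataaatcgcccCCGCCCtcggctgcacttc
Kdr: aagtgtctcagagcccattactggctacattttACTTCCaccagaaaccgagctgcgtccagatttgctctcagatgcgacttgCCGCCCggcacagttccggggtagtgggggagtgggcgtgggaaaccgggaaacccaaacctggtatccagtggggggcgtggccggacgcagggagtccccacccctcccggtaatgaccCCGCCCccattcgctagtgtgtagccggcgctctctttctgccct
Each window holds 1 ETS core. The Flt1 window holds 3 Sp1 cores and the Kdr window 2, and ACGTG or CACGT is in neither. The Vegfa and Vegfb windows above hold 0 ETS cores of these letters. The windows of the receptor kinases Flt4 and Tek, of Nrp1 and of Vegfc, not shown, also hold 0. The core therefore does not set the receptors apart from the ligands.

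The ligands of the VEGF family were less different between tissues. Vegfa had a log2 fold change of gWAT over heart of -0.49 ± 0.18 in KO mice (SE, 95% interval -0.87 to -0.11, edgeR adjusted p = 0.0250) and of -1.37 ± 0.19 in WT mice (SE, 95% interval -1.77 to -0.98, edgeR adjusted p = 7.9e-06). The call in KO mice was lost without KO heart 4 (edgeR adjusted p = 0.0955), KO gWAT 1 (0.124) or KO gWAT 3 (0.0767). Vegfb had -1.07 ± 0.14 in KO mice and -1.69 ± 0.14 in WT mice (SE). Vegfc passed in KO mice (-0.90 ± 0.20, SE, edgeR adjusted p = 0.00108) and did not pass in WT mice (-0.36 ± 0.20, SE, edgeR adjusted p = 0.113). The difference between the genotypes in Vegfa, Vegfb and Vegfc is the difference of the KO effect between tissues given above, which did not pass in edgeR for any of the 3 and passed in DESeq2 for Vegfa.

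Nrp1 and Angpt2 did not pass between tissues in either genotype. Nrp1, which is carried by many cell types beside endothelium, was at 149 ± 16.9 CPM in KO gWAT against 165 ± 22.4 CPM in KO hearts and 148 ± 21.2 CPM in WT gWAT against 176 ± 30.8 CPM in WT hearts (SD, n = 3 and n = 4). Angpt2 had log2 fold changes of gWAT over heart of -0.61 ± 0.36 in KO mice and 0.55 ± 0.34 in WT mice (SE), with edgeR adjusted p-values of 0.144 and 0.161. Tissue folds depend on the scaling. With library totals in place of TMM the median log2 fold change of all genes was 0.49 in KO mice and 0.61 in WT mice, instead of 0.01 in KO mice and 0.03 in WT mice, and Vegfa in KO mice (0.0056), Nrp1 in both genotypes (0.35) and Vegfc in WT mice (0.23) changed sign. In that fit 9 of the 10 passed in WT mice, where 76.1% of all genes did. Nrp1 and Angpt2 were among the 9, both higher in gWAT.

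**Figure D4:**
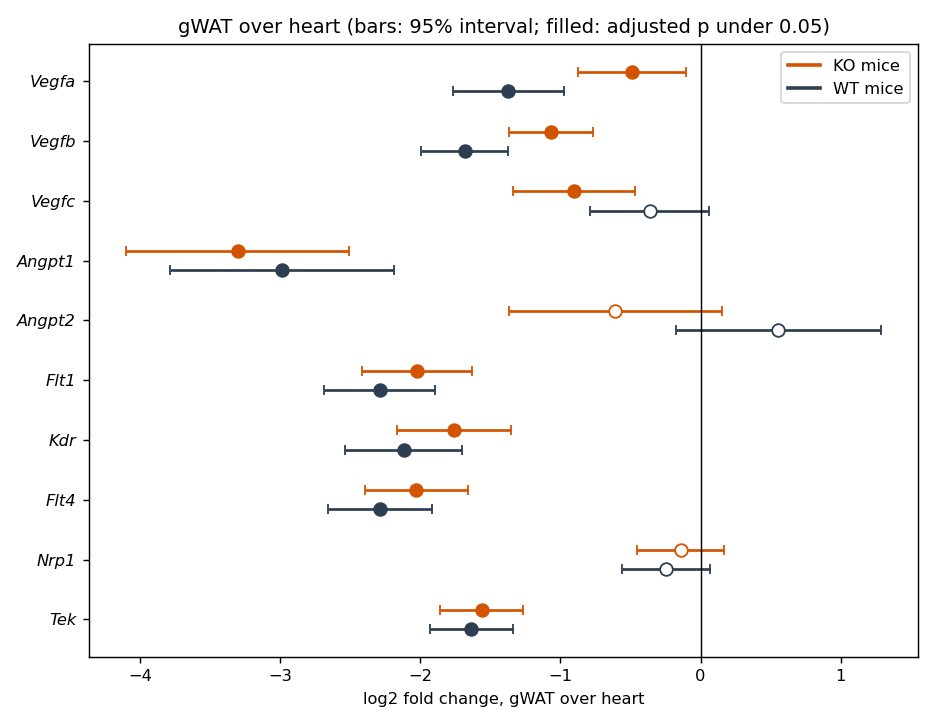
log2 fold change of gWAT over heart (horizontal axis) for each of the 10 genes (vertical axis) in KO mice and in WT mice, with 95% intervals as bars and filled points where the edgeR adjusted p was under 0.05. Angpt1 lies farthest left at -3.30 and -2.99, the 4 receptor kinases lie between -2.29 and -1.56, and Nrp1 and Angpt2 have open points in both genotypes.

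Levels of different genes were compared per kilobase of exon, as CPM per kb. The length is the union of all annotated exons of a gene, from 1605 bases in Vegfb to 13504 in Flt1. The gene counts do not separate transcript forms, so the order of genes depends on these lengths. Vegfb and Vegfa were the highest of the 10 in all 4 groups. Vegfb was at 54.4 ± 6.75 CPM per kb in KO gWAT, 36.3 ± 6.70 in WT gWAT, 114 ± 14.9 in KO hearts and 117 ± 12.6 in WT hearts (SD). Vegfa was at 40.3 ± 8.87 CPM per kb in KO gWAT, 21.3 ± 3.31 in WT gWAT, 56.6 ± 13.7 in KO hearts and 55.2 ± 5.55 in WT hearts (SD). In KO gWAT the libraries of these 2 ligands overlapped, and in the other 3 groups they did not.

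Below the ligands the order differed by tissue. In gWAT, Nrp1 came next at 15.3 ± 1.73 CPM per kb in KO and 15.1 ± 2.17 in WT (SD). Kdr and Tek, which overlapped each other in both genotypes, came next at 9.15 ± 2.37 and 7.85 ± 1.53 in KO gWAT and 7.25 ± 0.95 and 7.51 ± 1.01 in WT gWAT. Flt1 followed at 4.98 ± 1.59 in KO gWAT and 4.44 ± 0.53 in WT gWAT, apart from its neighbours. Vegfc, Angpt2, Angpt1 and Flt4 were the lowest 4, between 0.97 and 2.02 in KO gWAT and between 0.86 and 2.82 in WT gWAT, and each overlapped the next.

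In heart, the receptors stood directly below Vegfa. Kdr was at 31.0 ± 6.12 CPM per kb in KO hearts and 31.5 ± 4.99 in WT hearts, Tek at 23.2 ± 2.69 in KO hearts and 23.4 ± 1.80 in WT hearts, and Flt1 at 20.3 ± 2.37 in KO hearts and 21.7 ± 0.71 in WT hearts (SD). Tek and Flt1 overlapped, and so did Flt1 and Nrp1. Angpt1 came below Nrp1 at 11.1 ± 5.21 in KO hearts and 7.61 ± 2.91 in WT hearts, and Angpt2 was the lowest at 1.76 ± 0.34 in KO hearts and 1.52 ± 0.31 in WT hearts, apart from the gene above it. Angpt1 (ENSMUSG00000022309, chr15:42424723-42676977) shares 737 exon bases with the antisense gene Gm17473, which holds 95 reads in all 14 libraries.

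The ratio of Vegfa to Vegfb within a library averaged 0.97 ± 0.48 in KO gWAT and 0.65 ± 0.12 in WT gWAT on the log2 scale of counts (SD, n = 3 each). The difference of 0.32 had p = 0.4 in a two-sided exact permutation test. The ratio of Flt1, which holds VEGF-A without strong signalling, to Kdr averaged -0.32 ± 0.32 in KO gWAT and -0.13 ± 0.09 in WT gWAT (SD, n = 3 each), with p = 0.4 in the same exact test. In heart the differences of the 3 ratios were -0.29 for Angpt2 to Angpt1, 0.05 for Vegfa to Vegfb and -0.07 for Flt1 to Kdr, with exact permutation p-values of 0.657, 0.8 and 0.8, where 4 samples per group allow a smallest p of 0.0286. All 6 adjusted p-values were 0.8.

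For each of the 10 genes, the 3 genes with the most similar pattern were taken from 11442 genes by Pearson's r of their log2 deviations from the 4 group means over 14 libraries. These are descriptions, since the libraries share scaling and number sets. Flt1 was nearest to Prag1 (0.97), Adgrf5 (0.97) and Notch4 (0.96), of which Notch4 is a Notch receptor of endothelium. Kdr was nearest to Pcdh12 (0.95), an endothelial protocadherin, Nos2 (0.92) and Apln (0.91), the apelin ligand. Tek was nearest to Fat4 (0.91), Heyl (0.90) and Nos2 (0.90), and Nrp1 to Adgrl2 (0.95), Pou2f1 (0.93) and 2610203C22Rik (0.93). Vegfa was nearest to Smim13 (0.94), Socs6 (0.93) and Dyrk1a (0.91). Vegfb was nearest to Amacr (0.97), Mtfr1l (0.96) and Glrx5 (0.96), so the 2 ligands shared no gene among these. The nearest genes of Angpt1 were Vmp1, Ccn2 and Txlna (0.88 to 0.89) and those of Angpt2 were Tagln2, Chmp6 and Tlr8 (0.87 to 0.88). Flt4 was nearest to Lsp1, AI467606 and Mrgpre (0.88), and Vegfc to Tmub1, Ino80e and Rpl35 (0.86 to 0.89).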

How the data were processed

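The deposited table holds raw counts of reads per Ensembl gene, whole numbers that the authors did not normalize, with 1 column per library and 0 columns without a sample. RNA was extracted with Trizol from frozen tissue and made into mRNA libraries with a Kapa HyperPrep kit, per the labels' protocols. The build mm10 (GRCm38) and the tools FastQC, Picard, Trimmomatic 0.32, HISAT2 2.1.0, HTSeq 0.11.0 and limma are named without roles, per the submitters' processing notes. The sources used here give neither the annotation release nor the strand setting, so a gene and its antisense partner cannot be separated. Symbols matched 33406 of 33459 IDs. The 53 others hold 0.0132% of the reads. Of 18 pairs of libraries within a group, all differed by more than counting noise, with a lowest chi-square of 3.74 per degree of freedom.

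From these counts, KO and WT were compared per tissue with edgeR 4.0.16 in R 4.3.3 (filterByExpr, TMM, quasi-likelihood F test, Benjamini-Hochberg adjustment over all tested genes, threshold 0.05). Tissue contrasts and the difference of the KO effect came from 1 fit of all 14 libraries. That fit treats gWAT and heart libraries as independent. The sample titles repeat the numbers in both tissues and do not say whether equal numbers are the same mouse. An SE is the absolute log2 fold change over the root of its F value. Printed CPM are scaled with TMM over all 14 libraries, and lengths are exon unions of GENCODE M21. Ratios within a library used counts plus 0.5 and exact permutation tests in SciPy 1.17.1. The smallest total of any of the 10 genes in a group was 241 reads, for Angpt2 in WT hearts. The edgeR fit was tested on simulated data with 200 changed genes.

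Alternatives were RLE scaling, library totals, no filter, a mean count of at least 10, DESeq2 1.42.0, limma-voom 3.58.1, 1 fit for all libraries, the sample number as a block, an adjusted p of 0.1, the atrial marker level as a covariate in heart, and leaving out each library. A heart covariate that sets numbers 1 and 2 against 3 and 4 was chosen after seeing the data. Pairing of equal sample numbers was checked by the correlation of their deviations from group means. In heart the 4 pairs had r of 0.27 to 0.41, all above 0.1, the level set for treating numbers as pairs. Unequal numbers within 1 and 2 or within 3 and 4 had r of 0.19 to 0.49, and numbers across these sets -0.47 to -0.18. The correlations thus separate 2 sets of hearts and do not single out pairs by number, and the labels give neither. Between gWAT and heart of the same genotype, equal numbers had r of -0.03 to 0.25 in KO and -0.05 to 0.08 in WT.

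Named genes are the 10 genes, Fhl2, up to 4 called genes of each list, and 3 genes most like each of the 10. Nrp2, Aplnr, Esm1, Hif1a, Epas1, Hif3a, Egln3, Arnt, Prox1, Prkca, Grb2, Lep and Cd163 were named after their values were seen. The 10 genes and the lists were chosen with earlier results of these data known. Of 148 list symbols, 2 (Ccl21a and Mmrn1) were not matched. Promoter sequences are from RefSeq on GRCm38.p6. They were matched for 8 of the 10 genes.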

Additional observations from a re-analysis of the deposited data

Results flagged for a closer look

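Tek in heart stood apart in 1 library. WT heart 2 had 97.5 CPM, while the other 3 WT hearts had 113 to 115 CPM, and its gap to the nearest of them took 0.849 of the group's whole range, above the critical value for 4 samples. Of the 20 combinations of gene and heart genotype looked at in this way, this was the 1 that stood apart, and chance alone gives about 1 in 20. KO hearts 1 to 4 had 104, 96.1, 126 and 111 CPM of Tek, so WT heart 2 lies within the range of the KO hearts. The log2 fold change of Tek in heart was -0.01 and lay between -0.09 and 0.04 when single hearts were left out.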

How the results depend on the processing

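The number of the 10 genes called in gWAT was 1 and became 2 (Vegfa and Vegfb) in 1 fit for all 14 libraries, with library totals, with no filter, in DESeq2 and at an adjusted p of 0.1. Over all genes these fits called 10.8% in 1 fit for all libraries, 5.09% with library totals, 5.66% with no filter and 11.6% in DESeq2, where edgeR as reported called 5.49%. The number was 0 with the replicate block, and 0 to 3 when single libraries were left out, with 3 (Vegfa, Vegfb and Angpt2) without WT 1 and 0 without any other. These moves follow the whole gWAT table, in which edgeR called 0 genes with the block and without WT 4, KO 1, KO 3 or KO 4, 132 (0.855%) without WT 3 and 2908 (18.7%) without WT 1. With the block 19.2% of all genes had an unadjusted p under 0.05. With the block the log2 fold change of Vegfa was 0.91 (edgeR adjusted p = 0.0912). The gWAT numbers showed no pairing, with r of -0.25 to 0.05 between equal numbers. In heart the block changed no call. The difference between tissues was called for 0 of the 10, for 1 (Vegfa) with no filter, in DESeq2 and at an adjusted p of 0.1, and for 0 to 3 with single libraries left out, the 3 without gWAT WT 1, when 8.03% of all genes were called. Tissue contrasts had 7 to 9 calls in KO mice, beside 8 with all libraries, and 7 to 8 in WT mice, beside 7, when single libraries were left out. With library totals there were 7 in KO mice, where 72.9% of all genes were called, and 9 in WT mice, where 76.1% were. With the sample number within a genotype as a block there were 8 in KO mice, where 65.5% of all genes were called. In WT mice that block gave 8, where 67.9% were called.

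Gene lists in gWAT moved as well, in the same fits. Other family genes went to 1 (Nrp2) in 1 fit for all libraries, with no filter, in DESeq2 and at an adjusted p of 0.1, and to 0 to 1 with single libraries left out. VEGF receptor signalling went to 2 in 1 fit for all libraries, DESeq2 and at an adjusted p of 0.1, to 1 with no filter and to 0 to 6 without single libraries. VEGF-responsive genes went to 1 in 1 fit for all libraries, with library totals and at an adjusted p of 0.1, to 2 with no filter and in DESeq2, and to 0 to 3 without single libraries. Hypoxia regulators went to 1 in 1 fit for all libraries and with no filter, to 2 in DESeq2 and at an adjusted p of 0.1, and to 0 to 1 without single libraries. Hypoxia targets went to 2 in 1 fit for all libraries and with no filter, to 0 with the replicate block, and to 0 to 4 without single libraries. The 6 cell cycle genes called became 0 with the replicate block and 0 to 6 without single libraries. The cause of these moves was not tested. The fits without a library also have fewer samples, and the part of that was not tested either.

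Among the 10 genes, the signs that changed belonged to values that did not pass in edgeR as reported, with the exception of Vegfa between tissues in KO mice. On the log2 scale, library totals gave -0.043 for Nrp1 in gWAT, 0.018 for Vegfb, 0.024 for Kdr and 0.035 for Tek in heart, and -0.0016 for Nrp1 and -0.020 for Tek in the difference between tissues, beside Vegfa in KO mice (0.0056), Nrp1 (0.35 in KO mice, 0.35 in WT mice) and Vegfc in WT mice (0.23) between tissues. The atrial covariate gave 0.068 for Vegfb, 0.17 for Kdr, 0.081 for Nrp1 and 0.057 for Tek in heart. Without single libraries the ranges crossed 0 in gWAT for Flt4 (-0.030 to 0.39), Nrp1 (-0.083 to 0.14) and Tek (-0.087 to 0.19). In heart they did so for Vegfa (-0.14 to 0.14), Vegfb (-0.088 to 0.053), Vegfc (-0.042 to 0.19), Kdr (-0.14 to 0.076), Nrp1 (-0.19 to 0.0040) and Tek (-0.087 to 0.041). In the difference between tissues they did so for Angpt1 (-0.59 to 0.034) and Tek (-0.075 to 0.21). The heart ratios crossed 0 for Angpt2 to Angpt1 (-0.50 to 0.092), Vegfa to Vegfb (-0.067 to 0.21) and Flt1 to Kdr (-0.20 to 0.025).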
